A study of Mus musculus with 12 samples.

Results

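Genes of bone morphogenetic protein (BMP) signalling were followed in RNA from mouse embryonic fibroblasts with and without RTF2. The 9 genes were chosen by name and comprise the ligands Bmp2 and Bmp4, the secreted antagonists Grem1, Nog and Fst, the secreted modulator Bmper, and the target genes Id1, Id2 and Id3. All 9 were found among the 24100 genes counted, and all 9 were among the 14263 genes that passed the filter on low counts.

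RTF2 is a factor of the DNA replication fork. WT cells were Rtf2+/+ and RTF2-deficient cells were Rtf2-/lox, and both genotypes received a Cre retrovirus 72 hrs before harvest, so the controls carry Cre as well. The embryonic fibroblasts came from mid-gestation littermate embryos and had been immortalized with SV40. There were 2 lines and 3 libraries per line and genotype, which makes 4 groups and 12 libraries. The paper describes lines from individual mothers in general, and the mothers of these 2 lines are not given. The 3 libraries of a group are technical replicates of cells of 1 genotype in 1 line. A p-value therefore measures the spread between such libraries and not between embryos. Neither line nor genotype within a line can be told apart from embryo.

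BMP ligands are secreted dimers that bind type I and type II receptor kinases. The activated type I receptors phosphorylate Smad1, Smad5 and Smad9, which enter the nucleus with Smad4 and switch on target genes, among them the Id genes. Id proteins lack a DNA-binding region and hold E proteins such as Tcf3 away from DNA, and in mesenchymal cells BMP signalling is best known for its part in bone and cartilage formation and limb patterning.

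Library totals ran from 39360167 to 44695002 counts, and a gene without a count in the smallest library has a limit of 3 counts, or 0.0762 CPM (counts scaled to the library total). Rtf2 fell from a mean of 49.7 CPM in WT to 6.14 CPM in RTF2-deficient libraries (log2 fold change -3.01 ± 0.0567 SE, n = 6 per genotype, edgeR adjusted p = 2.45e-11), and every library matched its label. A list of 12 fibroblast markers summed to between 19532 and 31909 CPM and was carried by Col1a1, Col1a2, Fn1 and Vim. Of its members, Dcn (0.392 to 2.10 CPM) and Lum (0.124 to 1.65 CPM) were near 0. The epithelial list summed to at most 3.37 CPM. A chondrocyte list of 5 genes, led by Col2a1, summed to between 1623 and 2703 CPM in line 1 and between 768 and 1110 CPM in line 2. Most of the sum was Col2a1 (722 to 2443 CPM). Sox9 and Acan reached 88.6 and 169 CPM, while Col9a1 and Matn1 stayed at or below 2.70 and 0.0651 CPM. Within a line, 3 lists of other cell types did not overlap between the genotypes. In line 2 the chondrocyte list was at 768 to 903 CPM in WT and 935 to 1110 CPM in RTF2-deficient libraries, and a macrophage and blood list of 5 genes was at 6.46 to 9.66 and 4.77 to 4.98 CPM. The macrophage and blood list was carried by Cd68 (1.44 to 8.95 CPM over all libraries) and Csf1r (0.608 to 1.83 CPM). Ptprc and Adgre1 stayed at or below 0.122 and 0.128 CPM, and Hbb-bs was at 0. In line 1 an endothelial list of 5 genes was at 10.7 to 14.7 and 17.6 to 21.5 CPM. The WT line 2 libraries had Ddx3y, a Y-linked gene, at 91.8 to 107 CPM and Xist at no more than 0.132 CPM. The other 9 libraries had Xist at 103 CPM or more and Ddx3y at no more than 0.195 CPM. In line 2, genotype and sex of the embryo therefore cannot be told apart, and the same holds for line and sex between the WT lines. Over both lines, sex is not balanced between the genotypes either, since only WT libraries had Ddx3y at these levels.

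The upstream sequences of 3 genes that are described further on are printed here, because a block for replicate number in line 1 moved all 3 past the test and because their start sites in RefSeq and GENCODE lie within 2 bases of each other. Each is the 250 bases before the gene's start in RefSeq's annotation of GRCm38.p6, given on the strand of the gene and ending at the last base before the start. Capitals mark GGCGCC, a palindromic element bound by BMP-activated Smads, which reads the same on both strands.
Grem1 (chr2:113758649-113758898, minus strand): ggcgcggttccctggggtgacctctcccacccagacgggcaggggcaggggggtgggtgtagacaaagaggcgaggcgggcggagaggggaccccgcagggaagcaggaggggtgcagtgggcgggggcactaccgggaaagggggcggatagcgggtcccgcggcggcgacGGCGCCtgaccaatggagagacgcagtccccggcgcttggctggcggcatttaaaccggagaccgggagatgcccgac
Bmper (chr9:23222826-23223075, plus strand): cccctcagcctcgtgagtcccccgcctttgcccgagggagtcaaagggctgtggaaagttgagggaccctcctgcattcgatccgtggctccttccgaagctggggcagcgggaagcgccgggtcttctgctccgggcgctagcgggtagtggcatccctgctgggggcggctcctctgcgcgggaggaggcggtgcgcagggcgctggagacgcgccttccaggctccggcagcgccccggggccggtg
Bmp4 (chr14:46390670-46390919, minus strand): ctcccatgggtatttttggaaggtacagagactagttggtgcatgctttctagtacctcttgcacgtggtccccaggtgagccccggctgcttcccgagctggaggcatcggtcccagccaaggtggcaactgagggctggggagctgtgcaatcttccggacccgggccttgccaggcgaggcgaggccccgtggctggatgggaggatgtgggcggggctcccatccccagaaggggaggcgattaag

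Of the 9 genes, 5 had a promoter in the table used (these 3, Id2 and Id3). GGCGCC was found in 2 of them. In Grem1 its first base lay 78 bases before the start (position -78) and in Id2 231 bases before it (position -231). Among the 32851 promoters of the same length it occurred in 9.59%. A match of letters is a description and does not show a site that is bound, and its absence from a window says nothing about Smad binding there.

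In RefSeq coordinates of GRCm38, Fst (Entrez 14313) lies on the minus strand at chr13:114452262-114458989, Bmp4 (12159) on the minus strand at chr14:46383525-46390669 and Id2 (15902) on the minus strand at chr12:25093799-25096092. Grem1, Bmp2 and Id1 are on chromosome 2, as is Rtf2, which starts at position 172440578, while Nog is on chromosome 11, Id3 on chromosome 4 and Bmper on chromosome 9.

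Levels differed more between the genes than between the groups. On a scale of CPM per kb of exon, averaged over the 12 libraries, Id3 had the highest level at 171, followed by Id1 at 89.6 and Id2 at 39.5. Next came Fst at 14.5, Grem1 at 14.4 and Bmp4 at 12.7, whose ranges over the libraries overlapped (8.73 to 25.7, 9.38 to 20.5 and 5.16 to 24.8 CPM per kb), so the order of these 3 is not beyond their spread. Bmper followed at 7.23 (5.26 to 11.9) and Nog at 2.05 CPM per kb (0.935 to 7.13). The range of Bmper overlapped those of these 3 genes and that of Nog, so these places are not beyond the spread either. In RTF2-deficient line 2 the mean of Bmper (7.96 CPM per kb) was above that of Bmp4 (6.09). Bmp2 was lowest at 0.264 CPM per kb, with 17 to 92 counts per library. Id4, the remaining member of the Id family, lay between 11.2 and 21.4 CPM in the 12 libraries.

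Loss of RTF2 was first tested over both lines, with line as a term, to ask whether BMP ligands, antagonists and targets shift with genotype. The line term does not remove the imbalance of sex between the genotypes, here or for the other genes of the pathway. No gene of the 9 passed an adjusted p of 0.05 in edgeR's quasi-likelihood test (0 of 9), and 1 of 9, Bmp2, had an unadjusted p under 0.05, as did 28.5% of all tested genes. Over all tested genes 8.18% fell and 4.98% rose in edgeR, 13.2% in either direction. DESeq2 also called 0 of 9, and its share over all genes is not given here. The median log2 fold change of the 9 genes was -0.18, beside 0.0019 over all genes. The 95% intervals of Id1 (-0.48 to 0.12), Id2 (-0.40 to 0.11) and Id3 (-0.27 to 0.25) lay within a 2-fold change in either direction. So did those of Bmp4 (-0.84 to 0.41), Grem1 (-0.64 to 0.20), Bmper (-0.50 to 0.36) and Fst (-0.96 to 0.09). Those of Bmp2 (-1.34 to -0.07) and Nog (-0.86 to 1.30) did not. These intervals rest on technical replicates and do not cover the spread between embryos. In bulk RNA, fewer cells of a type and less RNA per cell cannot be told apart. The plot of fold changes by gene shows all 9 with their intervals.

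**Figure D1:**
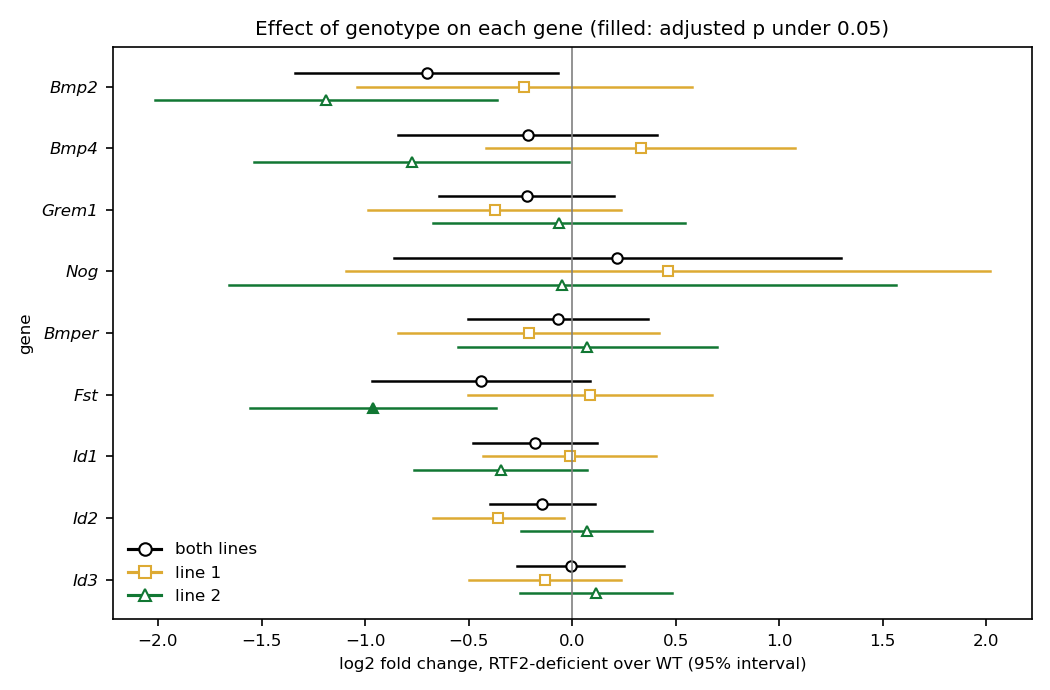
Log2 fold change of RTF2-deficient over WT cells (horizontal axis) for each of the 9 genes, over both lines (circles), in line 1 (squares) and in line 2 (triangles), with 95% intervals as bars; filled symbols passed an adjusted p of 0.05 in edgeR. Fst in line 2, at -0.96, is the filled symbol, and the intervals of Nog are the widest.

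The ligand Bmp2, an inducer of bone, was scarce in every library. WT line 1 libraries had 0.764, 1.04 and 1.30 CPM in replicates 1 to 3 and RTF2-deficient line 1 libraries had 0.836, 0.809 and 0.9996 CPM. WT line 2 libraries had 1.998, 0.706 and 1.13 CPM and RTF2-deficient line 2 libraries had 0.722, 0.436 and 0.520 CPM. The 3 RTF2-deficient line 2 libraries included the lowest values of all 12, yet they overlapped WT line 2 through 1 library. The log2 fold change was -0.70 ± 0.290 (SE) over both lines with an edgeR adjusted p of 0.134, and -1.19 ± 0.375 in line 2 with an adjusted p of 0.0617. In line 2 it passed in DESeq2 (adjusted p = 0.0331) and in edgeR without WT line 2 replicate 2 (-1.48, adjusted p = 0.024), and it was -0.70 without WT line 2 replicate 1 (adjusted p = 0.212).

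Bmp4, the more abundant ligand, which patterns mesoderm and limb mesenchyme, lay apart between the RTF2-deficient lines. WT line 1 libraries had 50.8, 26.2 and 24.8 CPM, and RTF2-deficient line 1 libraries had 55.6, 40.4 and 31.9 CPM. WT line 2 libraries had 13.9, 32.7 and 23.7 CPM, and RTF2-deficient line 2 libraries had 13.6, 11.6 and 15.9 CPM. Each RTF2-deficient library of line 1 was thus above each of line 2. The effect of genotype was 0.33 ± 0.340 on the log2 scale within line 1 and -0.77 ± 0.345 within line 2, neither past the test (edgeR adjusted p = 0.774 and 0.173). The test of the difference between these effects gave -1.10 with an adjusted p of 0.554.

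Grem1 encodes gremlin 1, which binds BMP2 and BMP4 and keeps them from their receptors. It was at 85.2, 59.6 and 46.5 CPM in WT line 1 and at 66.4, 38.9 and 42.4 CPM in RTF2-deficient line 1. In line 2 it was at 77.3, 48.6 and 66.0 CPM in WT and at 50.4, 54.3 and 78.9 CPM in RTF2-deficient libraries. The groups overlapped in both lines, and the spread within a group was as wide as any difference between means.

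Nog encodes noggin, another extracellular trap for BMP ligands. It stood at 8.74 CPM in replicate 1 of WT line 1 and at 12.1 CPM in replicate 1 of RTF2-deficient line 1. The other 10 libraries lay between 1.59 and 2.78 CPM. Replicate 1 of line 1 therefore carried 366 and 506 counts of Nog where the remaining libraries of that line carried 64 to 114. Means of line 1 rest on these libraries, and the fold change for line 1 of 0.46 turned to -0.77 without replicate 1 of RTF2-deficient line 1.

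Bmper, which binds BMPs and can dampen or aid their signalling, ranged from 25.4 to 57.3 CPM. Its highest libraries were RTF2-deficient line 2 replicate 3 at 57.3 CPM and WT line 2 replicate 1 at 50.7 CPM. The other 10 libraries lay at 38.2 CPM or below, and the genotypes overlapped in both lines.

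Fst encodes follistatin, which binds activins tightly and BMPs less so, and it was the gene of the 9 that fell with genotype in line 2. In WT line 2 it was at 72.4, 93.7 and 118 CPM, and in RTF2-deficient line 2 at 43.9, 50.2 and 51.8 CPM. The groups did not overlap, and the mean went from 94.7 ± 22.8 to 48.6 ± 4.19 CPM (SD, n = 3 each), a log2 fold change of -0.96 ± 0.271 (SE, edgeR adjusted p = 0.0404). In line 1 the values were 82.1, 40.1 and 57.8 CPM in WT and 82.7, 46.7 and 61.5 CPM in RTF2-deficient libraries, with a log2 fold change of 0.09 ± 0.268. The difference between the lines' effects was -1.05 ± 0.380, with an unadjusted p of 0.0188 and an adjusted p of 0.362, so it was not shown. The chondrocyte list (higher in RTF2-deficient) and the macrophage and blood list (lower) also differed without overlap in line 2, and their part in the fall of Fst was not tested. The line 2 call passed in DESeq2 (adjusted p = 0.00462). It was lost in edgeR when any 1 of 7 libraries was left out, with adjusted p from 0.0566 to 0.138. These were WT line 1 replicate 3, WT line 2 replicates 2 and 3, RTF2-deficient line 1 replicate 3 and each RTF2-deficient line 2 library.

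Across the 9 genes, line 2 gave 1 fall and 0 rises, where 7.03% of all tested genes fell and 5.42% rose. In line 1 without pairing, 0 of 9 fell and 0 rose, beside 2.52% and 0.68% of all tested genes, and 1 of 9 (Id2) had an unadjusted p under 0.05, beside 13.9% of all tested genes. DESeq2 also called 0 in line 1. The test of the difference in effect between the lines called 0 of 9, where it called 1.29% of all tested genes and 2 of the 9 (Bmp4 and Fst) had an unadjusted p under 0.05, beside 8.49% of all tested genes. DESeq2 called 0 of 9 there. Its shares over all tested genes are not given here, so its counts are not set against a background.

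**Figure D2:**
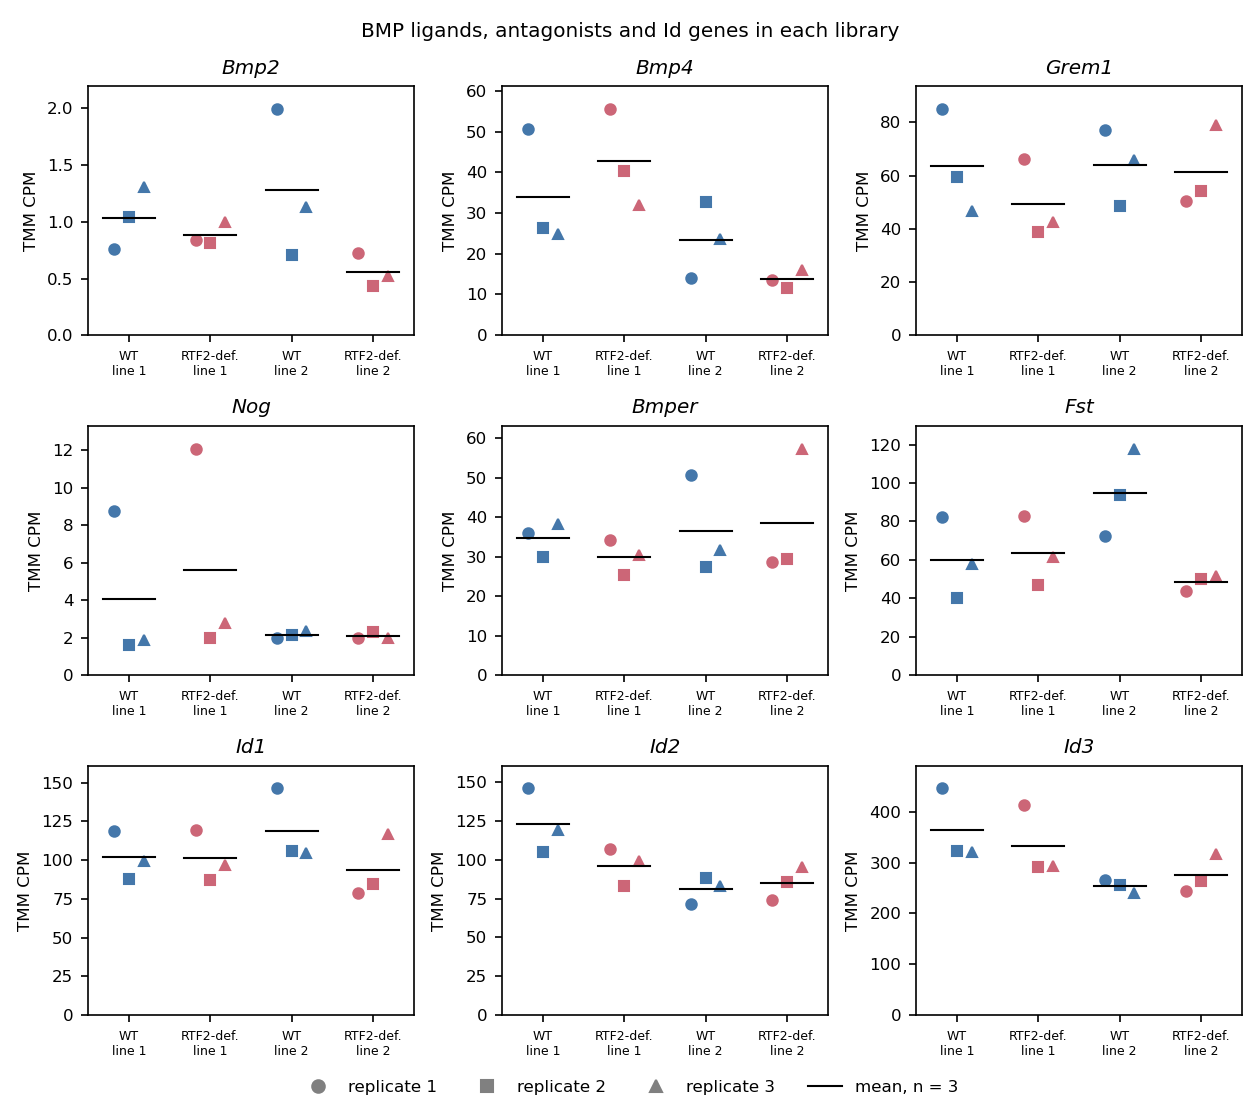
TMM-normalized CPM (vertical axis, from 0) of the 9 genes in each of the 12 libraries, by group, with replicate numbers as symbol shapes and the mean of 3 libraries as a line. Replicate 1 is highest for Nog in both groups of line 1 (8.74 and 12.1 CPM), and for Fst every RTF2-deficient line 2 library lies below every WT line 2 library.

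The Id genes showed the narrowest spread of the 9. Id1, an inhibitor of bHLH factors in endothelial and mesenchymal cells, ranged from 78.6 to 146 CPM, and genotype moved it by -0.01 ± 0.190 on the log2 scale within line 1 and by -0.35 ± 0.190 within line 2, neither past the test. Id2, another inhibitor of the family, was at 146, 105 and 119 CPM in WT line 1 and at 107, 83.1 and 99.0 CPM in RTF2-deficient line 1. In line 2 it was at 71.5, 88.4 and 82.8 CPM in WT and at 73.9, 85.6 and 95.2 CPM in RTF2-deficient libraries. WT line 1 thus stood above WT line 2 with no overlap, while the means of both RTF2-deficient groups lay in between and their libraries overlapped. Id3, the most abundant of the 9, was at 446, 324 and 322 CPM in WT line 1 and at 413, 291 and 293 CPM in RTF2-deficient line 1. In line 2 it was at 265, 256 and 240 CPM in WT and at 244, 263 and 317 CPM in RTF2-deficient libraries. Replicate 1 was highest in both groups of line 1 for all 3 Id genes.

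That shared rank of replicate 1 led to a paired test in line 1. Over 9633 genes, the deviations from the group means of same-numbered WT and RTF2-deficient libraries of line 1 correlated with r = 0.851, 0.781 and 0.834, so the numbers were taken to pair the libraries of line 1. In line 2 the same numbers gave r = -0.72, 0.133 and -0.415, so no pairing by number was made there. Differently numbered libraries of line 2 gave r = 0.711 (WT 1 and RTF2-deficient 3), 0.753 (WT 2 and RTF2-deficient 1) and 0.643 (WT 3 and RTF2-deficient 2), so correlations nearly as large also occurred without a shared number. The pairing of line 1 rests on these correlations and on the numbers, since no source used here says what a number marks. With line 1 fitted alone and a block for replicate number, 6 of the 9 genes passed the edgeR test. This fit was added after the data were seen. It called many genes of all kinds, 14.7% of 13685 lower and 14.4% higher.

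In this paired fit Grem1 fell by 0.37 on the log2 scale (SE 0.0777, adjusted p = 0.00847) and Id2 fell by 0.35 (SE 0.0451, adjusted p = 0.000818). Bmper fell by 0.21 (SE 0.0536, adjusted p = 0.0185) and Id3 fell by 0.13 (SE 0.0308, adjusted p = 0.0131). On the other side Nog rose by 0.45 (SE 0.113, adjusted p = 0.0177) and Bmp4 rose by 0.36 (SE 0.0836, adjusted p = 0.0134). The 4 that fell are thus an antagonist, a modulator and 2 Id targets, and the 2 that rose are an antagonist and a ligand. Fst, at 0.10, Id1, at -0.02, and Bmp2, at -0.22, did not pass.

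The pairs behind these values are small differences that keep 1 sign. Id2 was lower in the RTF2-deficient library by a log2 difference of -0.45, -0.33 and -0.27 in pairs 1 to 3, and Id3 by -0.11, -0.15 and -0.14. Grem1 gave -0.36, -0.61 and -0.13, while Nog gave 0.46, 0.32 and 0.55 and Bmp4 gave 0.13, 0.62 and 0.36. In 7 of the 9 genes the 3 differences had 1 sign, beside 58.7% of all 14263 genes. Without replicate number 1 the block called 6 of 9, without number 2 it called 2 and without number 3 it called 3, where these fits called 33.9%, 12.9% and 19.5% of all tested genes. The full fit, with more libraries, called 29.1%. Since the smaller fits reuse its libraries, passing them is not independent support. Id2 passed in all 3 of these smaller fits, and Grem1 and Id3 passed without number 1 or 3. Bmp4 and Bmper passed without number 1 alone and Nog without number 2 alone, while Fst was past the test without number 1 (log2 fold change 0.15, adjusted p = 0.0133).

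**Figure D3:**
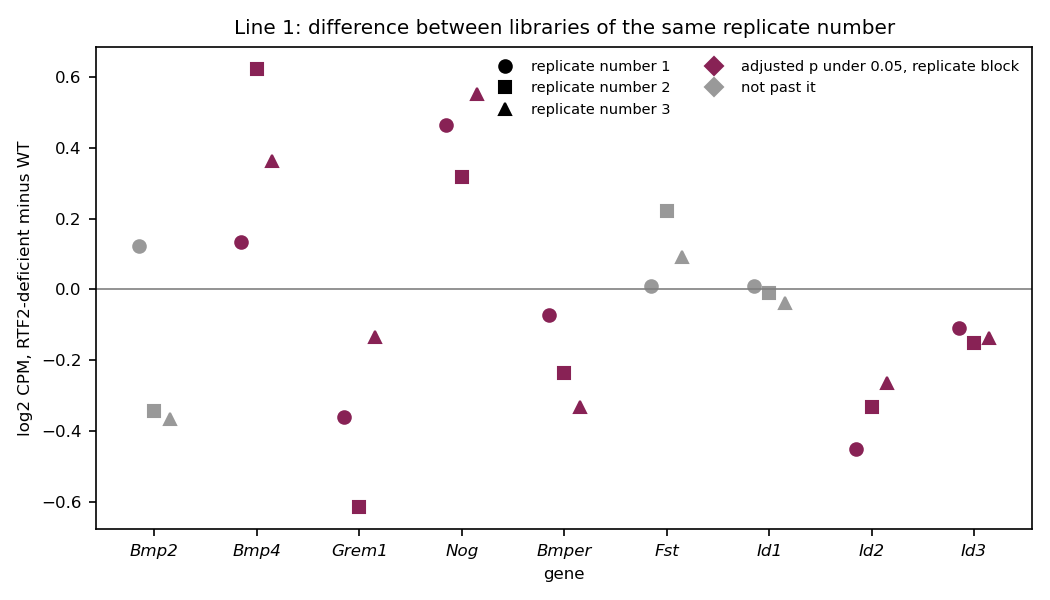
Difference in log2 CPM (vertical axis, prior count of 2) between the RTF2-deficient and the WT library of the same replicate number in line 1, for each of the 9 genes; purple marks genes with an adjusted p under 0.05 with a replicate block. Id2 lies below 0 in all 3 pairs, between -0.45 and -0.27, and Nog above 0, between 0.32 and 0.55.

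The libraries of a group differed in many of the BMP genes. Replicate 1 was the highest of its group for 7 of the 9 genes in WT line 1 and for 8 of the 9 in RTF2-deficient line 1, where it was highest for 38.1% and 40.3% of all tested genes. Over 13 target genes (the 4 Id genes, Msx1, Msx2, Dlx5, Hey1, Atoh8, Runx2, Sp7 and the inhibitory Smad6 and Smad7) it was highest for 12 and 11. In line 2, WT replicate 1 was highest for 5 of the 9 genes and lowest for the other 4 (Bmp4, Nog, Id2 and Fst), and RTF2-deficient replicate 3 was highest for 7 of the 9, beside 40.6% and 42.8% of all tested genes. Over the 13 targets these libraries were highest for 11 and 12. Atoh8, a bHLH factor, was at 105, 40.2 and 47.7 CPM in WT line 1, and its RTF2-deficient library was lower in each pair of line 1, by a log2 difference of -0.55, -0.39 and -0.42.

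An interferon score (the median log2 CPM of 12 interferon-stimulated genes) moved with these libraries. It was 4.30, 1.003 and 1.94 in WT line 1, 2.02, 0.819 and 1.26 in RTF2-deficient line 1, 9.20, 5.03 and 7.02 in WT line 2, and 1.71, 3.50 and 7.49 in RTF2-deficient line 2. In each of the 4 groups the library with the highest score was the one highest for 11 or 12 of the 13 targets, and its part in the BMP values was not tested. Without WT line 2 replicate 1 and RTF2-deficient line 2 replicate 3, Fst still passed in line 2 (-1.16, edgeR adjusted p = 0.0462).

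**Figure D4:**
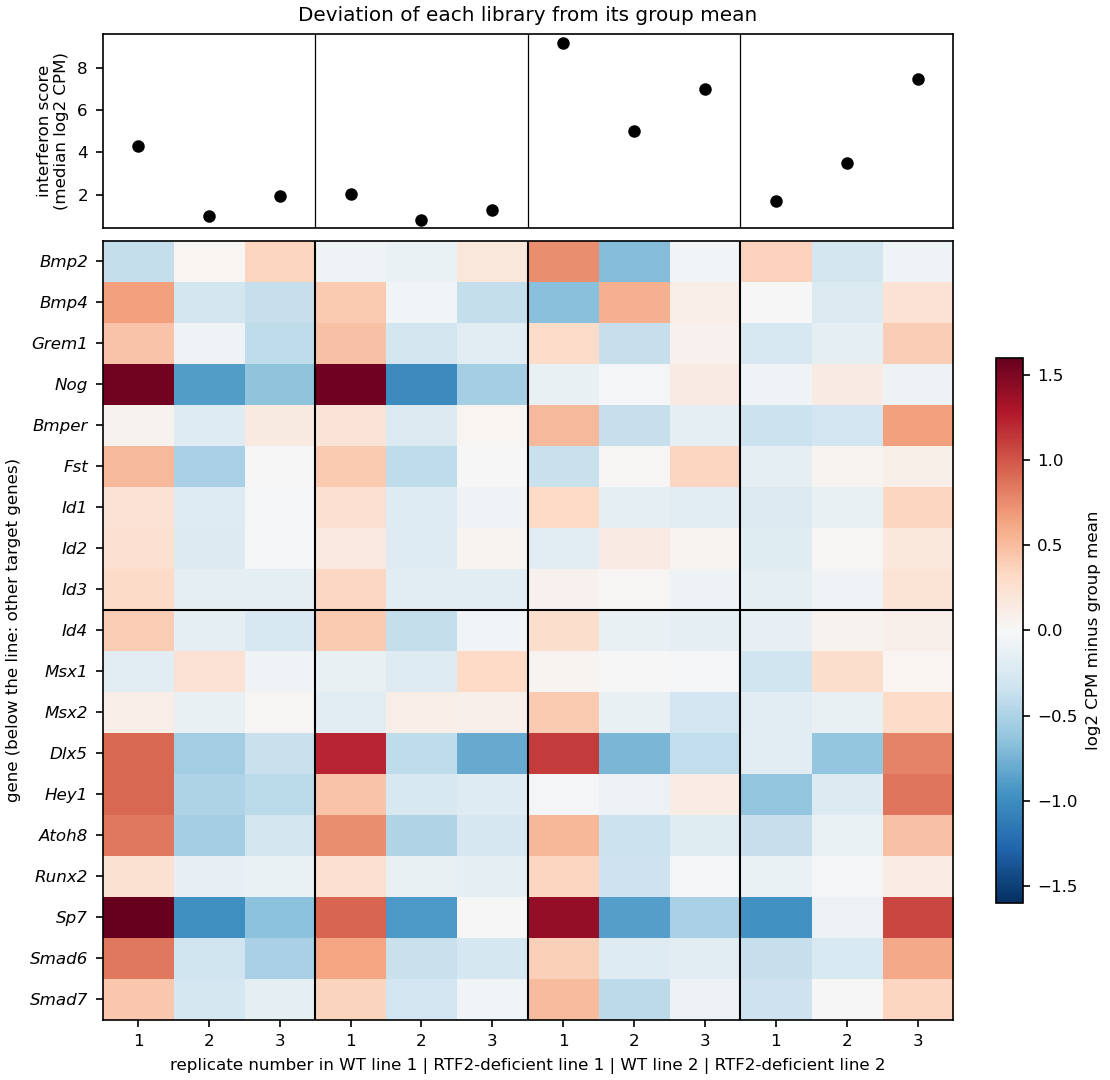
Log2 CPM minus the group mean (colour) for the 9 genes and 10 further BMP target genes in each of the 12 libraries, with the interferon score of each library (median log2 CPM of 12 genes) above. Replicate 1 of both line 1 groups, replicate 1 of WT line 2 and replicate 3 of RTF2-deficient line 2 are red for most target genes, and these libraries have the highest score of their group.

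The lines were compared within each genotype to place these effects beside the difference between embryos. Between the WT lines 1 of the 9 genes fell from line 1 to line 2 and 0 rose, where 7.31% of all tested genes fell and 6.7% rose. This gene was Id2, from 123 ± 20.9 to 80.9 ± 8.58 CPM (SD, n = 3 each), a log2 fold change of -0.61 ± 0.144 (edgeR adjusted p = 0.0169). Without replicate 1 of WT line 1 or of WT line 2 its adjusted p was 0.0553 or 0.0582. Id3 also did not overlap between the WT lines, at a log2 fold change of -0.52 and an adjusted p of 0.0627, and DESeq2 called it (0.0175). Fst gave 0.66, from 60.0 to 94.7 CPM, with an adjusted p of 0.135, and 0.94 with an adjusted p of 0.0302 without replicate 1 of line 1 in both genotypes.

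Between the RTF2-deficient lines 1 of the 9 fell and 0 rose, where 0.841% of all tested genes fell and 1.09% rose. This was Bmp4, from 42.7 ± 12.01 to 13.7 ± 2.17 CPM (SD, n = 3 each), a log2 fold change of -1.64 ± 0.350 (edgeR adjusted p = 0.0401). Bmp2 did not overlap between these groups either, at -0.65 and an adjusted p of 0.524. The Bmp4 call was lost without WT line 1 replicate 2, WT line 2 replicate 3, RTF2-deficient line 1 replicate 1 or 2, or any RTF2-deficient line 2 library (adjusted p from 0.0533 to 0.173). It was also lost with a replicate block over the 12 libraries (adjusted p = 0.0748), and DESeq2 gave 9.27e-05. The chondrocyte list, as given above, and the fibroblast list were higher in line 1 without overlap in both genotypes. So was a neural list of 6 genes (90.6 to 125 and 67.0 to 81.0 CPM in the WT lines, 89.7 to 133 and 71.9 to 77.5 CPM in the RTF2-deficient lines). Map2, Tubb3 and Sox2 carried it, and Sox10, Elavl3 and Neurod1 stayed at or below 0.145, 0.586 and 0.0244 CPM. The macrophage and blood list was lower in line 1 (2.43 to 3.63 CPM in WT and 2.58 to 3.07 CPM in RTF2-deficient libraries), and a skeletal muscle list of 5 genes was lower in line 1 between the RTF2-deficient lines (17.0 to 24.0 and 33.1 to 42.8 CPM). Acta1 and Des carried the muscle list, while Myod1, Myog and Myh3 stayed at or below 2.91, 0.597 and 0.549 CPM. The part of these lists in the differences between lines was not tested.

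The rest of the pathway was read from a list of 75 genes, of which 61 passed the filter. Over both lines 3 of the 61 fell and 10 rose with loss of RTF2, where 8.18% and 4.98% of all tested genes did, and the median log2 fold change of the 61 was 0.07. Most of the rises were in receptors and in secreted proteases and modulators. Receptors gave 4 rises in 12 tested, extracellular antagonists and modulators 3 rises and 1 fall in 12, activin subunits 1 rise and 1 fall in 3, ligands 1 fall in 10, and intracellular and membrane regulators 2 rises in 7. None of the 6 Smads, the 8 target genes or the 3 E proteins passed (0 of each). With the 3 libraries of a group summed to 1, no gene of the list passed, nor did any gene of the whole table (0 in both), and 14 of the list had an unadjusted p under 0.05, beside 19.2% of all tested genes.

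Among the falls, Gdf5, a ligand of joint and cartilage formation, went from 1.35 to 0.299 CPM (log2 fold change -2.01 ± 0.369, edgeR adjusted p = 0.00386). Its mean was 2.24 CPM in WT line 2 and 0.436 CPM in RTF2-deficient line 2. In line 1 it was 0.466 CPM in WT and 0.161 CPM in RTF2-deficient libraries, not past the test (edgeR adjusted p = 0.211). The genotypes overlapped over both lines. Chrd, which encodes the BMP antagonist chordin, was at 4.78 to 7.17 CPM in the 6 WT libraries and at 1.77 to 3.80 CPM in the 6 RTF2-deficient libraries, with no overlap (-1.12 ± 0.190, adjusted p = 0.00239). Inha, the inhibin alpha subunit, went from 0.995 to 0.607 CPM (-0.70, adjusted p = 0.0443), a call lost without any 1 of 9 libraries (WT line 1 replicates 1 to 3, WT line 2 replicates 2 and 3, RTF2-deficient line 1 replicates 2 and 3, and RTF2-deficient line 2 replicates 1 and 2). The call of Inha was also lost with a replicate block (adjusted p = 0.0757), with no filter (0.0689) and without the line term (0.0583), and that of Gdf5 without the line term (0.0533).

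Among the rises, Bmp1, which is a metalloprotease and not a BMP ligand and which cleaves procollagen and chordin, was at 123 to 254 CPM in WT and at 256 to 343 CPM in RTF2-deficient libraries. The groups did not overlap (log2 fold change 0.72 ± 0.0956, edgeR adjusted p = 0.000496). Tll1, a protease of the same family, rose by 0.59 (153 to 217 CPM, adjusted p = 0.0248). Its mean went from 204 to 234 CPM in line 1 and from 102 to 201 CPM in line 2, where genotype and sex cannot be told apart. Inhba, the activin A subunit bound by follistatin, rose by 0.65 (118 to 182 CPM, adjusted p = 0.00846). The receptors Acvr2b, a type II receptor for activins and BMPs, and Acvrl1, a type I receptor for BMP9, rose by 0.63 and 0.54 (adjusted p = 0.00637 and 0.0285). Acvrl1 is best known from endothelial cells, and the endothelial list was higher without overlap in RTF2-deficient libraries of line 1, as given above. Of its 5 genes, Pecam1, Cdh5 and Emcn stayed at or below 0.113, 0.231 and 0.626 CPM in every library, and the list was carried by Kdr and Tek. Its part in the rise of Acvrl1 was not tested. The call of Acvrl1 ended without any 1 of 7 libraries (WT line 1 replicate 2, WT line 2 replicates 2 and 3, RTF2-deficient line 1 replicates 2 and 3, and RTF2-deficient line 2 replicates 1 and 2). That of Tll1 ended without WT line 2 replicate 3 or RTF2-deficient line 2 replicate 1 or 2, without the 2 line 2 libraries of highest interferon score (adjusted p = 0.0534) and without the line term (0.202).

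**Figure D5:**
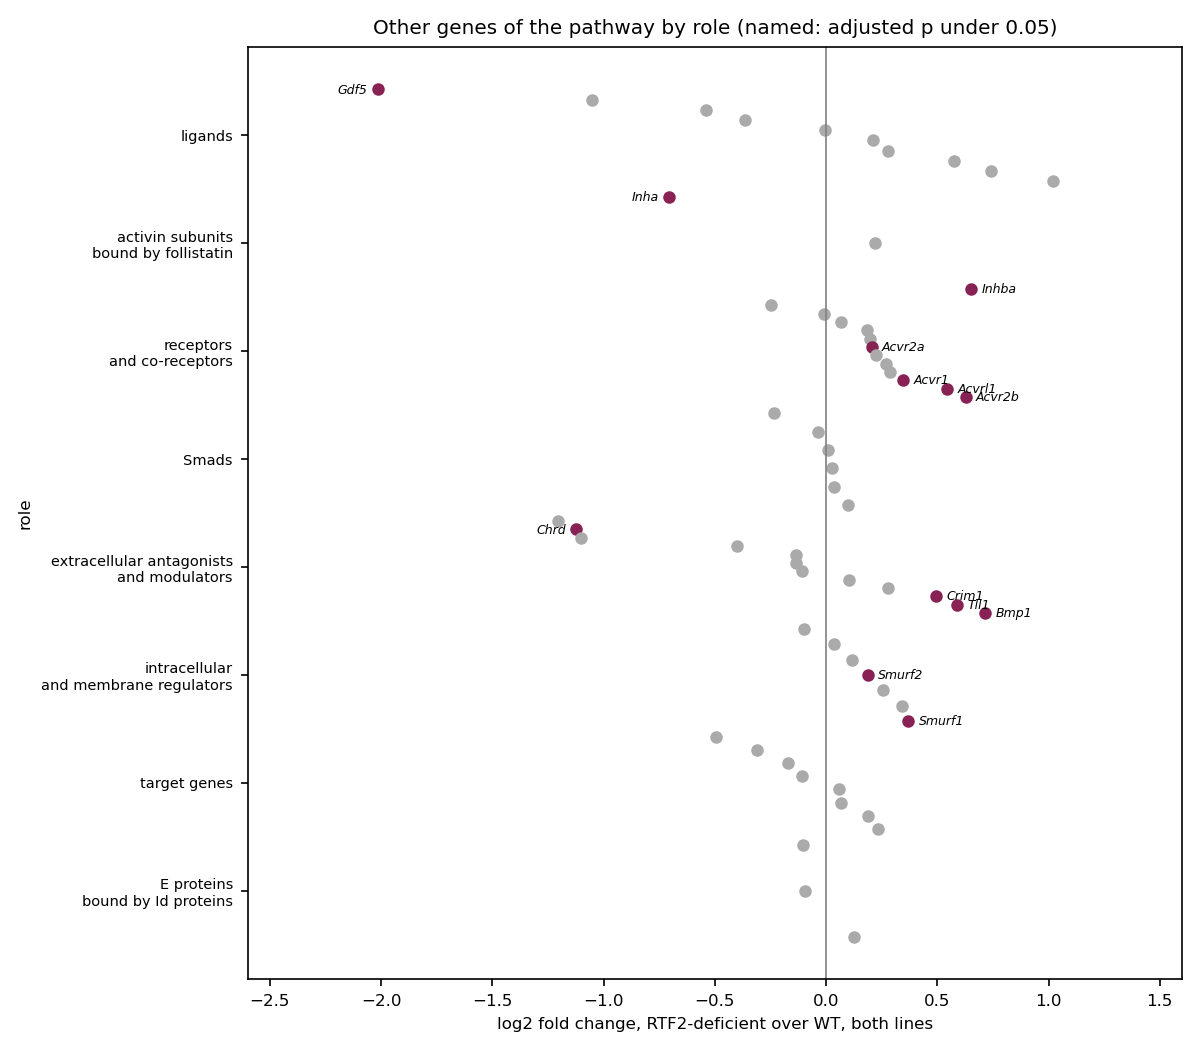
Log2 fold change of RTF2-deficient over WT cells over both lines (horizontal axis) for the 61 tested genes of the pathway list, grouped by role (vertical axis); each point is a gene, and purple named points passed an adjusted p of 0.05 in edgeR. Falls are led by Gdf5 at -2.01, and the 10 rises lie between 0.19 and 0.72.

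In line 1, 2 of the 61 rose and 0 fell without pairing, beside 0.68% and 2.52% of all tested genes. With the replicate block of line 1, 10 of 59 fell and 14 rose, where 14.7% of all genes fell and 14.4% rose, and 33, 9 and 19 of the list passed without number 1, 2 and 3, beside 33.9%, 12.9% and 19.5% of all tested genes. The 8 tested target genes then gave 1 fall, Atoh8 (-0.46, edgeR adjusted p = 0.00025), and 2 rises, Msx1 (1.46, adjusted p = 0.00622) and Msx2 (0.31, adjusted p = 0.0417). Of the Smads that carry the BMP signal, Smad5 and Smad9 fell by 0.12 and 0.18 on the log2 scale (adjusted p = 0.0284 and 0.0354), and Smad1 was at 0.07 (adjusted p = 0.322). In line 2 the 3 were at 0.05, 0.23 and 0.13 for Smad5, Smad9 and Smad1, with adjusted p from 0.391 to 0.715. In line 2, 5 of the 61 fell and 8 rose, beside 7.03% and 5.42% of all tested genes. The difference between RTF2-deficient and WT libraries was not the same in both lines for Bmp1 (0.54 larger in line 2, edgeR adjusted p = 0.0431) and for the homeobox target gene Msx1 (-2.18, adjusted p = 0.0132). Msx1 was at 0.287 to 0.396 CPM in WT line 1 and 0.785 to 1.15 CPM in RTF2-deficient line 1, and at 2.69 to 2.84 CPM in WT line 2 and 1.32 to 2.03 CPM in RTF2-deficient line 2. The genotypes overlapped in neither line, and they lay in opposite order. Since WT and RTF2-deficient cells of line 2 differ in sex markers and those of line 1 do not, genotype by line and sex cannot be told apart in these values.

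Between the WT lines 12 of the 61 were lower and 6 higher in line 2, beside 7.31% and 6.7% of all tested genes. Between the RTF2-deficient lines 0 of 61 passed in edgeR, where 0.841% and 1.09% of all tested genes did, so a count of 0 is near that background. Of the 61, 11 had an unadjusted p under 0.05 in edgeR, beside 13.4% of all tested genes. DESeq2 called 3, and its share over all tested genes is not given here. The ligand Gdf6 went from 0.531 CPM in WT line 1 to 11.1 CPM in WT line 2 (log2 fold change 4.37, edgeR adjusted p = 0.000789, and 4.9997 without WT line 1 replicate 3) and Msx1 from 0.332 to 2.76 CPM (3.05, adjusted p = 2.28e-05). The antagonist Chrdl1 (2.76, and 2.31 to 4.02 with 1 library left out, the highest without WT line 1 replicate 1) and the ligand Bmp8b (2.29) were also higher in line 2. Neo1, a co-receptor, went from 328 to 155 CPM (-1.09, adjusted p = 0.00699). The ligand Bmp5 (-2.37, and -3.01 without WT line 2 replicate 2), the target Hey1 (-1.58, and -0.98 without WT line 1 replicate 1) and Tll1 (-1.01) were likewise lower in line 2. The calls of Bmp5, Chrdl1 and Hey1 each ended without WT line 2 replicate 1 or 3. Those of Bmp5 and Chrdl1 also ended without WT line 1 replicate 2 or 3, that of Chrdl1 without RTF2-deficient line 1 replicate 3, and that of Hey1 without WT line 1 replicate 1 or WT line 2 replicate 2 and with a replicate block (adjusted p from 0.0521 to 0.128). Gdf6 stood at 3.001 CPM in RTF2-deficient line 2, a comparison that uses the same WT line 2 libraries.

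Genes most like each of 8 of the 9 (Bmp2 was left out, with a mean under 1 CPM) were found as the smallest root mean square difference in centred log2 CPM over the 12 libraries among 12239 genes with a mean of 1 CPM or more. Xbp1 was closest to Id3 at 0.0784, Khnyn to Id1 at 0.0734 and Tmem64 to Id2 at 0.114, where the median gene differed by 0.338, 0.322 and 0.343. Zfp41, Nme4 and Kdelr3 came next for the same genes. For Bmp4 the closest were Cdo1 (0.257) and Calhm5, and for Fst Begain (0.202) and Plpp1. For Grem1 they were Rnf167 (0.153) and Zfp94, for Bmper Arntl (0.144) and Polk, and for Nog Sox21 (0.442) and Angptl1. None of the 16 genes named so was on the pathway list.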

How the data were processed

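RNA of 12 libraries was sequenced, 3 per line and genotype. The authors deposited raw counts per gene, identified by Entrez number and not normalized. Salmon and tximport are named in the study's methods but HTSeq and mm10 in the submitters' notes, so the counting tool is unsettled. Strand use is not given in the sources used here. Symbols were looked up in RefSeq's GRCm38 annotation (24045 of 24100 identifiers matched), and exon lengths were taken from GENCODE M21. Promoter sequences came from RefSeq (GRCm38.p6).

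Genes passing filterByExpr on the 4 groups were TMM-normalized and tested in R 4.3.3 with edgeR 4.0.16 (glmQLFit, glmQLFTest). Terms for line and genotype gave the effect over both lines, and contrasts of the 4 groups gave the others. A call is a Benjamini-Hochberg adjusted p under 0.05 over all 14263 tested genes. The SE is the size of the coefficient over the square root of F. CPM are TMM-normalized, and log2 CPM carry a prior count of 2. In line 1 replicate numbers were taken to pair the libraries (correlation of deviations over genes with a mean log2 CPM of at least 3), so a fit of line 1 with a replicate block stands beside the main one. The genes named were all 9, Rtf2, Id4, up to 5 called genes of the pathway list in each direction over both lines, up to 4 in each direction between lines with a log2 fold change beyond 1, and the 2 genes most like each of the 9 with a mean of at least 1 CPM (all but Bmp2). Atoh8, Msx2, Smad1, Smad5, Smad9, Pecam1, Cdh5, Emcn, Kdr, Tek, Col1a1, Col1a2, Fn1, Vim, Dcn, Lum, Col2a1, Ddx3y and Xist, and Msx1 and Bmp1 in the test of the difference between lines, were named after their values were seen. Other genes named from the cell type lists were also named after their values were seen. The 9 genes, the lists, the tests and the alternatives were chosen with earlier results of these data known.

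Alternatives were RLE and upper-quartile normalization, other filters, DESeq2 1.42.0, a replicate block, no line term, summed triplicates, limma 3.58.1 voom with group as a random block, a 2-fold rule, and each library left out. Added after seeing the data were each line fitted alone, pairs left out of line 1, and fits without replicate 1 of line 1 or without WT line 2 replicate 1 and RTF2-deficient line 2 replicate 3. Scripts were tested on simulated data. Limits of 3 counts cover counting error only.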

Additional observations from a re-analysis of the deposited data

Results flagged for a closer look

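Among 18 sets of 6 libraries (9 genes, each genotype), 3 held a library far from the others of its genotype by Dixon's criterion, where chance gives about 1 in 20 (5%) for independent sets from 1 population. These sets mix both lines, and the sets that hold same-numbered libraries of line 1 are not independent. Nog was at 8.74 CPM in WT line 1 replicate 1, where the nearest WT library had 2.36 CPM, and at 12.1 CPM in RTF2-deficient line 1 replicate 1, where the nearest had 2.78 CPM. Bmper was at 57.3 CPM in RTF2-deficient line 2 replicate 3, where the nearest had 34.2 CPM. The interaction test gave a difference between the lines in RTF2-deficient against WT libraries for Msx1 (line 2 minus line 1, -2.18 on the log2 scale) and for Bmp1 (0.54), where sex and genotype cannot be told apart in line 2.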

How the results depend on the processing

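Some counts here have no share over all tested genes beside them. Such counts show only how the number of calls moved, and not whether it differs from the background. The 2-fold rule called 246 of all 14263 tested genes over both lines and 131 in line 1. Over both lines 0 of the 9 BMP genes passed under every alternative run. The count of the pathway list was 13, and it was 2 with a 2-fold rule, 0 with summed triplicates, 21 with voom and group as a random block (estimated correlation -0.148, so this fit makes no allowance for libraries that share a cell line), and 8 to 15 with 1 library left out. In line 1 without pairing, the list's count of 2 was 6 with DESeq2, 1 with the 2-fold rule, 1 to 3 with 1 library left out, 0 without replicate 1 of line 1 in both genotypes and 5 without the line 2 libraries of highest interferon score. With line 1 alone and its replicate block it was 24, and 33, 9 and 19 without numbers 1, 2 and 3, while the 9 BMP genes gave 6, and 6, 2 and 3 (29.1%, and 33.9%, 12.9% and 19.5% of all tested genes). A replicate block over all 12 libraries changed no call among the 9 BMP genes in 5 of the 6 comparisons. It took the count between the RTF2-deficient lines from 1 to 0 (Bmp4, adjusted p = 0.0748). Of the named genes of the list it ended the calls of Inha (0.0757) over both lines and Hey1 (0.0522) between the WT lines, and the list gave 11 calls over both lines and 13 between the WT lines. In line 2 same-numbered libraries did not correlate best with each other, so this block pairs them by number only.

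The count of the 9 in line 2 was 1, and it was 2 under DESeq2. It was 0 with the 2-fold rule, which called 539 of all 14263 tested genes, and 0 to 1 with 1 library left out. Without WT line 2 replicate 2 the gene called was Bmp2 in place of Fst. Between the WT lines the count of the 9 was 1, with 2 under DESeq2 and 0 to 2 with 1 library left out. The 2-fold rule, which called 964 of all tested genes there, gave 0 of the 9, and the list's 18 became 10. Between the RTF2-deficient lines the count of the 9 was 1, with 0 to 1 with 1 library left out and 0 without replicate 1 of line 1. The list's 0 there became 1 with no filter, 3 with DESeq2, 1 without the line 2 libraries of highest interferon score and 0 to 1 with 1 library left out. The cause of these shifts was not tested, beyond the fewer libraries or stricter rule.

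Signs of log2 fold changes that had not passed the test turned as follows. For genotype over both lines, Id3 (-0.01) was 0.000421 with RLE, 0.0029 with no filter, 0.000424 with DESeq2 and 0.022 without replicate 1 of line 1. With 1 library left out, Id3 ranged from -0.071 to 0.094, Nog from -0.37 to 0.72, Bmper from -0.25 to 0.056 and Id4 from -0.21 to 0.0077. In line 1 the ranges were -0.77 to 1.70 for Nog, -0.15 to 0.12 for Id1, -0.32 to 0.052 for Id3 and -0.15 to 0.39 for Fst. In line 2 they were -0.27 to 0.10 for Grem1, -0.11 to 0.034 for Nog, -0.00614 to 0.16 for Id2 and -0.31 to 0.39 for Bmper. Without the line 2 libraries of highest interferon score, Id2 was -0.092 and Bmper -0.011 in line 2. The difference of effects ranged from -1.74 to 0.73 for Nog and from -0.11 to 0.59 for Bmper.

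Between the WT lines, Grem1 (0.0044) was -0.00697 with RLE, -0.027 with no filter, -0.00696 with DESeq2 and -0.17 without the line 2 libraries of highest interferon score, where Bmp2 was -0.19 and Bmper -0.25. Nog was 0.30 without replicate 1 of line 1. With 1 library left out, Grem1 ranged from -0.19 to 0.25, Bmp2 from -0.19 to 0.60, Nog from -1.32 to 0.30 and Bmper from -0.25 to 0.24. Between the RTF2-deficient lines, Id1 was 0.010 without replicate 1 of line 1 and Bmper -0.054 without the line 2 libraries of highest interferon score. With 1 library left out, they ranged from -0.32 to 0.016 and from -0.055 to 0.53. No called value changed sign under the alternatives run. Depth limits Bmp2, with 17 to 92 counts per library, more than the other 8 genes.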
